A study of Homo sapiens with 15 samples.

Results

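The genes described here are the integrin subunits that build laminin receptors and RGD receptors, together with the integrin-like gene ITGBL1. They were chosen by name from a list of 10 genes (ITGA3, ITGA5, ITGA6, ITGAV, ITGB3, ITGB4, ITGB5, ITGB6, ITGB8 and ITGBL1). The rule used no measured value, but earlier results of these data were known when the list was chosen. The count table held 9 of the 10 among its 18858 genes, and ITGB6 was not analysed here. MDA-MB-231 is a triple-negative human breast adenocarcinoma cell line that invades in culture. Wild-type cells of this 1 line were grown for 24 h, transfected with siRNA pools for 48 h and then kept on gelatin, which is denatured collagen, for 5 to 6 h before RNA was taken. There were 5 groups of 3 libraries. They included untransfected cells (Control), cells given a non-targeting siRNA pool (siControl) and cells given a pool against YAP1 (siYAP). The remaining groups were cells given a pool against WWTR1, the gene of TAZ (siTAZ), and cells given the YAP1 and WWTR1 pools together (siYAP+TAZ). The study describes the libraries as 3 independent sets of experiments, but neither it nor the labels say which libraries form a set, and the labels give no batch.

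Integrins are cell surface receptors made of 1 alpha and 1 beta subunit, and the pair decides which matrix protein is bound. ITGA3 and ITGA6 lead the laminin receptors, whereas ITGA5 and ITGAV lead receptors for the Arg-Gly-Asp (RGD) motif of fibronectin, vitronectin and latent TGF-beta. YAP and TAZ are transcriptional co-activators of the Hippo pathway that act through TEAD factors and are themselves known to respond to integrin adhesion, and integrins sit around invadopodia, the actin-rich protrusions with which invasive cells degrade matrix.

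The siRNA sequences are shown because they define the knockdown groups. Each is the sense strand, 5′ to 3′, and the capitals mark the 7 bases that pair with the seed of the guide strand (its bases 2 to 8).
YAP1 oligo 1: gcaccuaucacUCUCGAGa
YAP1 oligo 2: gaacauagaagGAGAGGAg
YAP1 oligo 3: ccaccaagcuaGAUAAAGa
YAP1 oligo 4: ggucagagauaCUUCUUAa
WWTR1 oligo 1: aagccuagcucGUGGCGGa
WWTR1 oligo 2: aggaacaaacgUUGACUUa
WWTR1 oligo 3: ggacaaacaccCAUGAACa
WWTR1 oligo 4: gacaugagaucCAUCACUa
Negative control: ugguuuacaugUCGACUAa
Each targeting oligo matched its own target's transcripts over all 19 bases. The longest run that any of the 9 oligos shared with a transcript of an integrin listed above was 8 to 11 bases, and the run of 11 lay between YAP1 oligo 2 and ITGB8. The 7 capital bases alone occurred in transcripts of 2 to 7 of the 9 genes for each targeting oligo and of 0 for the listed control sequence. The study names its control as a non-targeting pool but lists only this sequence, so any others were not searched. What such short matches did was not tested. The co-knockdown cells received both pools, and therefore more kinds of siRNA than the single knockdowns.

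The targeted genes were lower in every knockdown library than in every siControl library, but by unequal amounts. Relative to the siControl mean, YAP1 RNA stood at 23.4, 64.0 and 17.6% in the siYAP libraries 18, 23 and 28, and at 51.8, 51.0 and 41.5% in the siYAP+TAZ libraries 20, 25 and 30. WWTR1 RNA stood at 45.8, 14.1 and 28.8% in the siTAZ libraries 19, 24 and 29, and at 62.7, 62.1 and 71.0% in siYAP+TAZ. Each target therefore kept more of its RNA in the co-knockdown than in all but 1 library of its single knockdown, siYAP 23 for YAP1. Library totals ran from 18696737 to 30107312 counts, and no pair of libraries held identical values. All 4 markers of the line (VIM, CD44, CAV1 and EGFR) were in the table, with summed levels between 71571 and 81526 normalized counts over the 15 libraries. Of 5 luminal markers, CDH1 and ESR1 had no row in the table and the remaining 3 summed to 691 to 1020. Of 4 leukocyte markers 2 were in the table. PTPRC lay between 0 and 5.10, and the sum of PTPRC and CD14 was 18.2 to 23.1 in siControl and 36.7 to 45.2 in siYAP+TAZ. CD14 carried that difference and its part in the results was not tested. In bulk RNA, fewer cells expressing a gene cannot be told apart from less RNA per cell.

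ITGA3 was by far the most abundant of these RNAs and ITGB8 and ITGBL1 the least. Levels between genes were compared as CPM (counts scaled to the depth of the library) per kilobase of exons. In siControl ITGA3, the alpha chain of the laminin receptor with ITGB1, stood at 233 ± 24.4 CPM per kilobase (SD, n = 3), and ITGB1 itself at 43.8 ± 0.626. A middle group followed, with ITGA6 at 42.7 ± 1.39, ITGB4 at 38.1 ± 10.3, ITGA5 at 30.5 ± 3.75 and ITGB5 at 27.9 ± 3.80. The libraries of neighbours in this middle order overlapped, although every ITGA6 library lay above every ITGA5 and ITGB5 library. ITGAV, the alpha chain shared by several RGD receptors, was clearly below them at 5.99 ± 0.0846, followed by ITGB3 at 0.846 ± 0.216. ITGBL1 at 0.186 ± 0.0492 and ITGB8 at 0.152 ± 0.0182 closed the order and overlapped each other. The span from ITGA3 to ITGB8 was 1538-fold. With the length of the canonical transcript in place of all exons, an alternative chosen after seeing the data, ITGA5 moved to second place at 53.0 and ITGA6 stood at 49.0, while the first place and the last 5 stayed as they were. The values themselves were over 1.5 times higher for several genes, at 468 for ITGA3, 16.4 for ITGAV and 0.472 for ITGBL1. The distances between genes therefore depend on the length used. ITGB1, with 14561 exonic bases, was not recomputed with its canonical length.

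**Figure D1:**
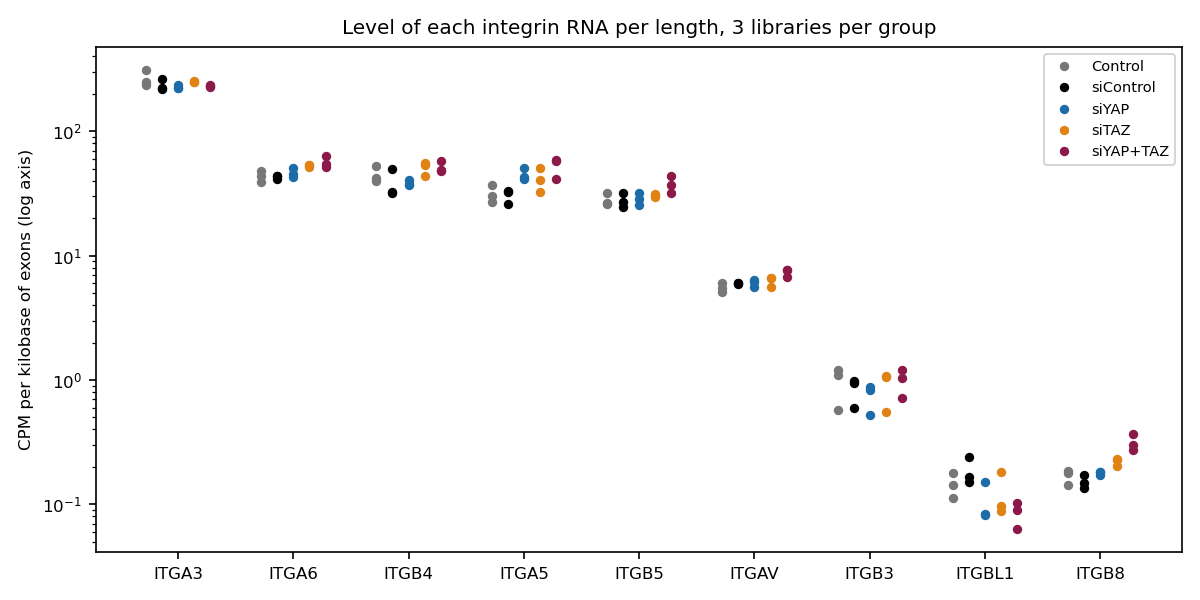
Level of each integrin RNA per length. The x axis gives the 9 genes in the order of their siControl mean, the y axis gives CPM per kilobase of exons on a log scale, and each point is 1 of 3 libraries of the group shown by its colour. ITGA3 lies above every other gene in all libraries, and ITGBL1 and ITGB8 lie at the bottom, where they trade places between siControl and siYAP+TAZ.

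Among the beta chains in the table that pair with ITGAV, other than the widely shared ITGB1, ITGB5 made up nearly all of the RNA per length. Its share of the sum of ITGB3, ITGB5 and ITGB8 was 96.5 ± 0.880% in siControl and 96.7 ± 0.120% in siYAP+TAZ (SD, n = 3). ITGB3 took 2.95 ± 0.834% and 2.51 ± 0.291%, and ITGB8 took 0.528 ± 0.0461% and 0.827 ± 0.254%. The share of ITGB8 in every siYAP+TAZ library was above that in every siControl library, while those of ITGB3 and ITGB5 overlapped.

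The main question of the design is what knockdown of both co-activators does, and here, where it was partial, the integrins moved mostly upward. Against siControl, siYAP+TAZ had 6 of the 9 genes at an adjusted p of 0.05 or less in edgeR's quasi-likelihood test. ITGA5, ITGA6, ITGAV, ITGB5 and ITGB8 rose and ITGBL1 fell. Over all 18858 genes the same test called 18.4%, with 9.97% called higher and 8.39% called lower. Of the 9, ITGB8 and ITGBL1 also passed the study's fold criterion, a log2 fold change of 1 or more in size, which 3.46% of all genes met. That criterion was missed by ITGB8 without siControl 27 (0.96), without siYAP+TAZ 30 (0.91) and with Control as the reference (0.89), and by ITGBL1 in the same 3 cases (-0.90, -0.92 and -0.77). The groups did not overlap for 6 of 9 genes, against 36.4% of all genes. The median log2 fold change of the 9 was 0.40, and that of all genes tested was -0.0048.

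**Figure D2:**
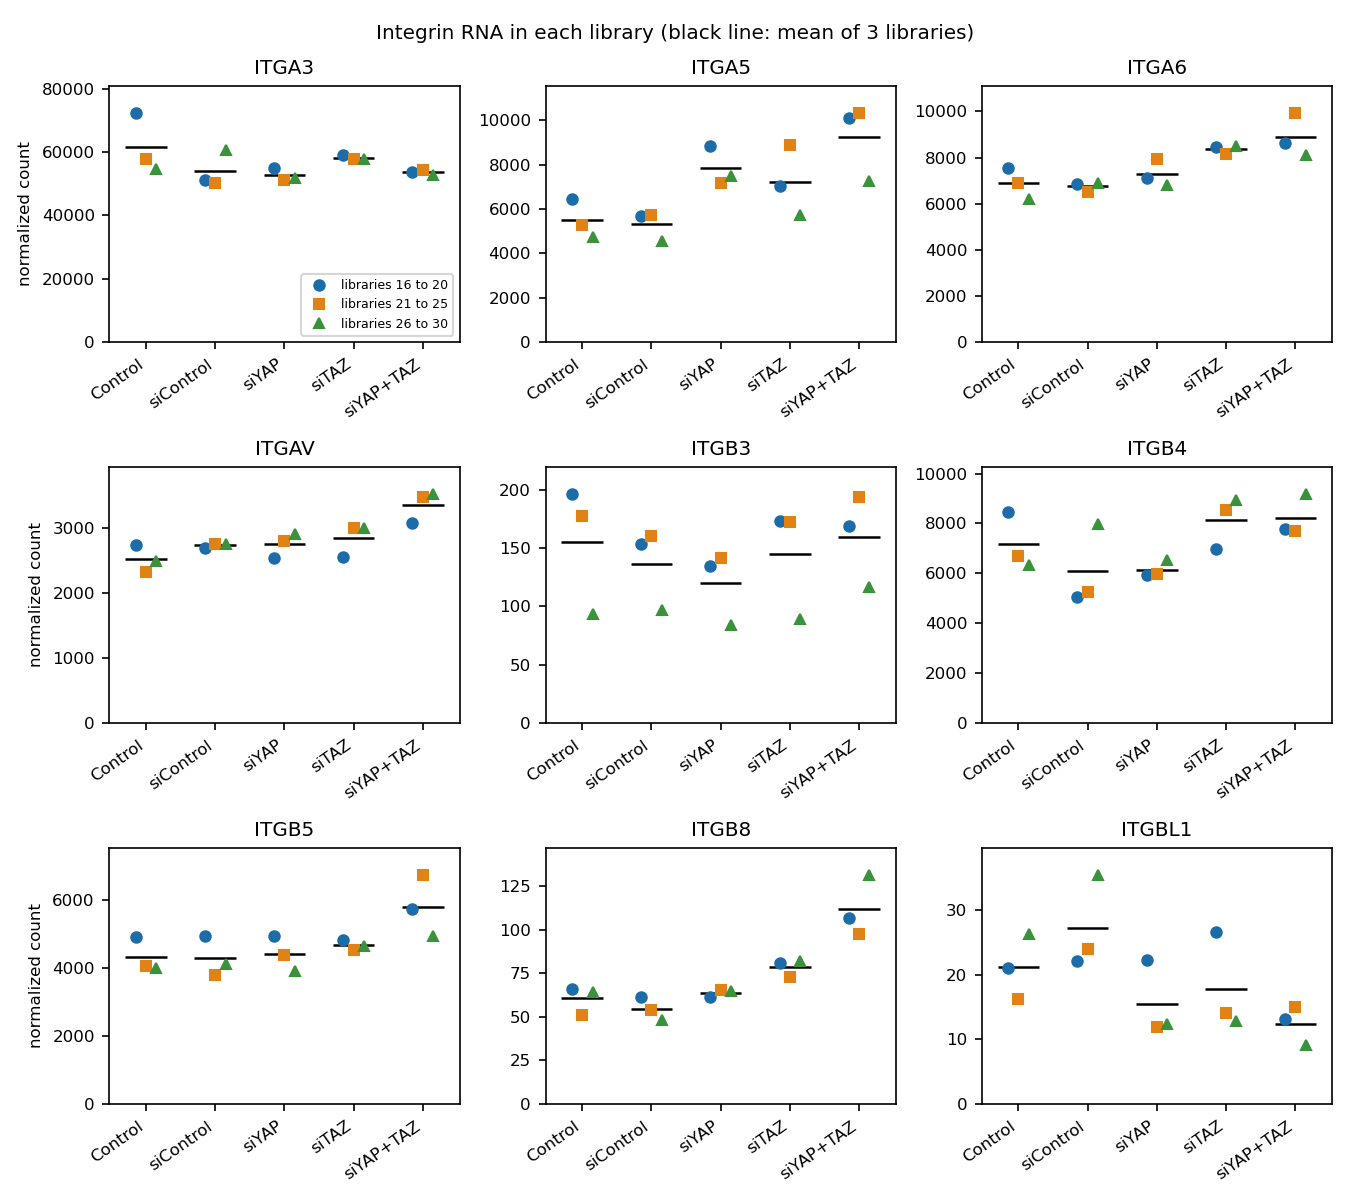
Normalized counts of each integrin RNA in every library. Each panel is 1 gene, the x axis gives the 5 groups, the y axis gives the normalized count from 0, the symbols mark libraries 16 to 20, 21 to 25 and 26 to 30, and the black line is the mean of 3 libraries. ITGB8 lies between 97.8 and 131 in siYAP+TAZ, above every library of the other groups, whereas ITGA3 is level and ITGB3 is lowest in libraries 26 to 30 of every group.

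Of the laminin receptor chains, ITGA6 rose, ITGA3 did not differ measurably and ITGB4 missed the threshold. ITGA6 (chromosome 2, 172427354 to 172506459, GRCh38), which pairs with ITGB1 or ITGB4, had 6867, 6491 and 6875 normalized counts in siControl and 8630, 9917 and 8128 in siYAP+TAZ. All co-knockdown libraries were higher, with a log2 fold change of 0.40 (SE 0.085, adjusted p = 0.0028, edgeR), or 1.32-fold. ITGA3 (chromosome 17, 50055968 to 50090481) had 51296, 50347 and 60592 in siControl and 53612, 54183 and 52837 in siYAP+TAZ. These ranges overlapped, and the log2 fold change was -0.01, with a 95% interval from -0.20 to 0.17. ITGB4 (chromosome 17, 75721328 to 75757818), whose long cytoplasmic tail anchors hemidesmosomes to keratin, had 5059, 5235 and 7995 in siControl and 7782, 7689 and 9167 in siYAP+TAZ. Library siControl 27 stood above 2 of the 3 co-knockdown libraries, so the groups overlapped. The log2 fold change of ITGB4 was 0.43 (SE 0.163, adjusted p = 0.086), and without siControl 27 it was 0.67 with an adjusted p of 0.0017. DESeq2 and limma-voom placed it under the threshold with adjusted p-values of 0.039 and 0.040, and over all alternatives the adjusted p ranged from 0.0017 to 0.450.

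Of the RGD receptor alpha chains, both rose. ITGA5 (chromosome 12, 54395261 to 54419266), the alpha chain of the classical fibronectin receptor, had 5664, 5750 and 4574 normalized counts in siControl and 10111, 10318 and 7275 in siYAP+TAZ. The lowest co-knockdown library was above the highest siControl library, and the log2 fold change was 0.79 (SE 0.177, adjusted p = 0.0069), or 1.73-fold. ITGAV (chromosome 2, 186590010 to 186680901) had 2693, 2754 and 2765 in siControl and 3088, 3491 and 3524 in siYAP+TAZ, with little spread in siControl. Its log2 fold change was 0.30 (SE 0.083, adjusted p = 0.016). The call of ITGAV was lost without siControl 17 (adjusted p = 0.059), siYAP+TAZ 25 (0.066) or siYAP+TAZ 30 (0.061), within a range over all alternatives of 0.0013 to 0.066.

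ITGB1 (chromosome 10, 32887273 to 33005792), the common beta partner of ITGA3, ITGA5, ITGA6 and ITGAV, is not among the 9 genes and was not called. It had 15110, 14854 and 15282 normalized counts in siControl and 15790, 17832 and 15860 in siYAP+TAZ. The groups did not overlap, but the log2 fold change was 0.13, with a 95% interval from -0.03 to 0.29 and an adjusted p of 0.317.

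Of the RGD receptor beta chains, ITGB5 and ITGB8 rose, and ITGB3 varied more between libraries than between groups. ITGB5 (chromosome 3, 124761948 to 124901418), a vitronectin receptor chain with ITGAV, had 4942, 3806 and 4125 normalized counts in siControl and 5750, 6727 and 4942 in siYAP+TAZ. The groups only just separated, since the lowest co-knockdown library and the highest siControl library were less than 1 normalized count apart. The log2 fold change of ITGB5 was 0.44 (SE 0.120, adjusted p = 0.017), and the call was lost without siControl 22 (adjusted p = 0.084), siControl 27 (0.060) or siYAP+TAZ 25 (0.095), within a range of 0.0011 to 0.095.

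ITGB8 (chromosome 7, 20330702 to 20415754), the beta chain that with ITGAV binds and activates latent TGF-beta, showed the largest rise of the 9 genes. It had 61.2, 53.6 and 48.3 normalized counts in siControl and 107, 97.8 and 131 in siYAP+TAZ, from raw counts of 72, 58 and 45 against 90, 91 and 143. The groups were well apart, with a log2 fold change of 1.04 (SE 0.169, adjusted p = 3.0e-04), or 2.06-fold. The level stayed low in absolute terms, at 0.313 ± 0.0482 CPM per kilobase in siYAP+TAZ (SD, n = 3). ITGA5, ITGA6 and ITGB8 were called under each alternative setting and with each library of either group left out.

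ITGB3 (chromosome 17, 47253827 to 47313743), the vitronectin and osteopontin receptor chain, had 153, 160.0 and 96.6 normalized counts in siControl and 169, 193 and 117 in siYAP+TAZ. In each group the library numbered 26 to 30 was the lowest. Over all groups ITGB3 lay between 84.2 and 117 in libraries 26 to 30 and between 134 and 196 in libraries 16 to 25, with no overlap. Its log2 fold change of 0.21 had an SE of 0.319 and an adjusted p of 0.714. Of the exonic bases of ITGB3, 33.2% are shared on the same strand with another annotated gene, so its counts are uncertain.

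ITGBL1 (chromosome 13, 101452593 to 101720856) encodes a secreted protein with EGF-like repeats related to those of the beta subunits. It had 22.1, 24.0 and 35.4 normalized counts in siControl and 13.1, 15 and 9.18 in siYAP+TAZ, from raw counts of 26, 26 and 33 against 11, 14 and 10. All co-knockdown libraries were lower, with a log2 fold change of -1.12 (SE 0.364, adjusted p = 0.038). This was the least firm of the 6 calls. It was lost when any of the 6 libraries compared except siControl 17 was left out, with adjusted p-values from 0.055 to 0.146, and with Control as the reference, where the log2 fold change was -0.77 and the adjusted p was 0.178. Over all alternatives of ITGBL1 the adjusted p ranged from 0.015 to 0.178. Of its exonic bases, 70.5% lie opposite exons of FGF14, and whether the counting used strand is not given in the sources used here, so reads of both genes may not be told apart. FGF14 itself had 1.72 to 11.9 normalized counts over the 15 libraries.

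The RefSeq promoter table (GRCh38.p14, 250 bases before to 50 after each start) had entries for 6 of the 9 genes, in 10 windows. Both motifs searched, on either strand and not overlapping each other, are those of factors that work with YAP and TAZ. The TEAD core CATTCC occurred in 14% of all 35116 windows and the AP-1 motif TGANTCA in 7.71%. Among the windows of the 6 genes, only that of ITGA5 held either, and it held 1 match of each. The 250 bases before the ITGA5 start, on the minus strand at chr12:54419267-54419516, are shown with the motif letters in capitals. The first match is the TEAD core on the opposite strand, and the second is the AP-1 motif, whose last letter is the start base itself.
ITGA5 promoter: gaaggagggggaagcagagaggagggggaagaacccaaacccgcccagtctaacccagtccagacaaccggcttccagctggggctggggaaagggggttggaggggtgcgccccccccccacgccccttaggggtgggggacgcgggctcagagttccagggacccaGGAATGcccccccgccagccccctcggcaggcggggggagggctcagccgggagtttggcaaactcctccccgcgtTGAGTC
A match describes the letters only, and a window without one says nothing of either factor.

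The single knockdowns were compared with the same 3 siControl libraries, and neither gave a call among the 9 genes. In siYAP, 0 of 9 genes passed the adjusted p in edgeR, against 0.933% of all genes. At an unadjusted p under 0.05 there were 2, ITGA5 and ITGBL1, against 11.9% of all genes, and DESeq2 called 1, ITGA5, and 2.12% of all genes, while limma-voom called 0 and 0.88% of all genes. ITGA5 had 8848, 7177 and 7499 normalized counts in siYAP, all above siControl, with a log2 fold change of 0.56 (SE 0.176, adjusted p = 0.187). ITGB8 had 61.3, 65.2 and 64.7, the lowest just above the highest siControl library, with a log2 fold change of 0.22 and a 95% interval from -0.12 to 0.56. ITGBL1 had 22.2, 11.9 and 12.3, which overlapped siControl, with a log2 fold change of -0.78 (SE 0.339, adjusted p = 0.364). With libraries 16 to 20, 21 to 25 and 26 to 30 as blocks, by their numbers alone, ITGA5 was called in siYAP (adjusted p = 0.015), as were 6.1% of all genes. The log2 fold changes of the other 6 genes lay between -0.18 for ITGB3 and 0.11 for ITGA6.

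In siTAZ, 0 of 9 genes passed in edgeR, against 2.03% of all genes. At an unadjusted p under 0.05 there were 4, ITGA5, ITGA6, ITGB4 and ITGB8, against 16% of all genes, and DESeq2 called 1, ITGA6, and 4.25% of all genes, while limma-voom called 0 and 1.88% of all genes. ITGA6 had 8461, 8160 and 8513 normalized counts in siTAZ, all above siControl, with a log2 fold change of 0.31 (SE 0.085, adjusted p = 0.062). ITGB8 had 80.9, 72.7 and 82.3, again all above siControl, with a log2 fold change of 0.53 (SE 0.174, adjusted p = 0.123). ITGB4 had 6986, 8525 and 8940, and ITGA5 had 7034, 8911 and 5723, with log2 fold changes of 0.42 and 0.44 and adjusted p-values of 0.217 and 0.236. For ITGB4 siControl 27 lay within the siTAZ range, and for ITGA5 siTAZ 29 lay within the siControl range. Without siControl 27, ITGB4 alone was called in siTAZ. With the block, ITGA5 and ITGA6 were called (adjusted p = 0.039 and 0.0036), as were 10.3% of all genes.

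**Figure D3:**
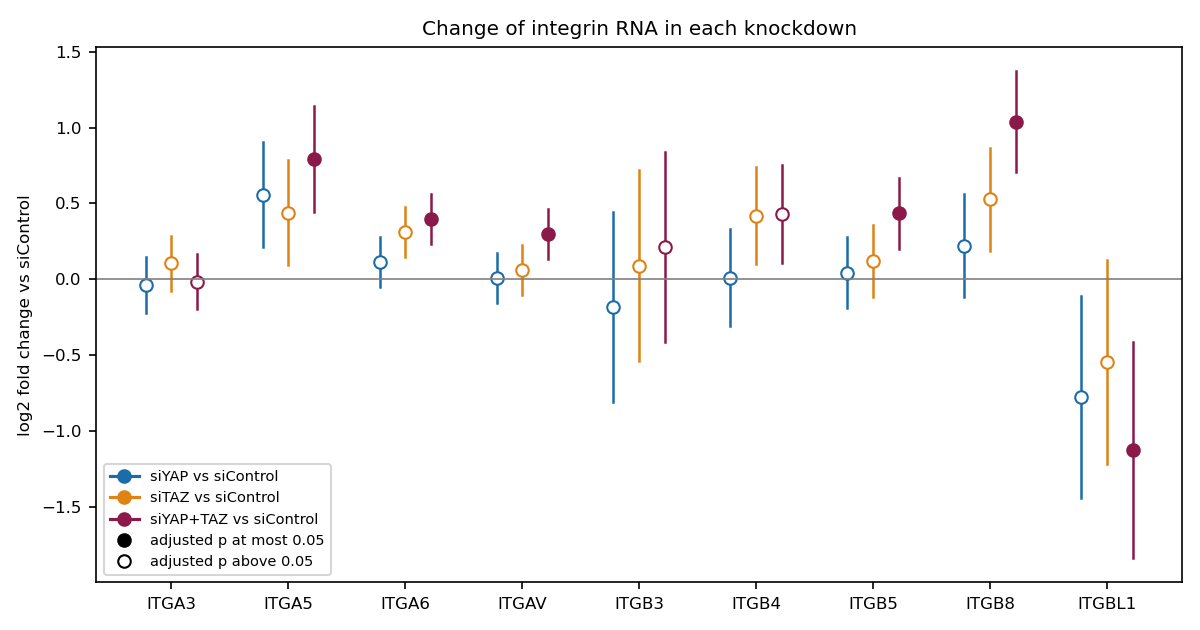
Log2 fold change of each integrin RNA against siControl. The x axis gives the 9 genes, the y axis gives the log2 fold change, the colours mark the 3 knockdowns, bars are 95% intervals (3 libraries per group), and filled points have an adjusted p of at most 0.05 in edgeR. All 6 filled points belong to siYAP+TAZ, 5 above 0 and ITGBL1 at -1.12.

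No effect of the non-targeting siRNA on these genes was detected. In siControl against Control, 0 of 9 were called in edgeR, against 0% of all genes, and the unadjusted p was under 0.05 for 0 of the 9 and for 2.11% of all genes. DESeq2 and limma-voom also called 0 genes. The log2 fold changes lay between -0.23 for ITGB4 and 0.35 for ITGBL1, and 0 of the 9 had groups that did not overlap, against 5.83% of all genes. ITGB8 had 65.9, 51.3 and 64.4 normalized counts in Control, which overlapped siControl and lay under every siYAP+TAZ library.

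Direct comparison of the co-knockdown with each single knockdown gave calls for ITGB8 and, less firmly, ITGAV, both against siYAP. Against siYAP, 2 of 9 genes passed in edgeR and 5.13% of all genes did. ITGB8 was higher in siYAP+TAZ by a log2 fold change of 0.82 (SE 0.165, adjusted p = 0.0069). ITGAV had 2540, 2803 and 2920 in siYAP, all under the co-knockdown, with a log2 fold change of 0.29 (SE 0.083, adjusted p = 0.0496). The call of ITGAV was lost with 3 other settings, without any 1 of the siYAP libraries 18, 23 and 28, and without siYAP+TAZ 25 or 30, with the adjusted p over all alternatives between 0.0038 and 0.210. ITGA6 and ITGB5 had log2 fold changes of 0.29 and 0.39 with adjusted p-values of 0.058 and 0.070. ITGB4 had a log2 fold change of 0.42 and was not called. The groups did not overlap for ITGA6, ITGAV, ITGB4 and ITGB8, whereas those of ITGB5 did. The share of all genes without overlap in this comparison is not reported here. With the block 5 of the 9 were called, ITGA6, ITGAV, ITGB3, ITGB5 and ITGB8, and so were 14.6% of all genes.

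Against siTAZ, 0 of 9 genes passed in edgeR, where 5.44% of all genes did. At an unadjusted p under 0.05 there were 3, ITGAV, ITGB5 and ITGB8, against 19.3% of all genes, and DESeq2 and limma-voom called 0. ITGB8 had a log2 fold change of 0.51 (SE 0.166, adjusted p = 0.079) with a 95% interval from 0.19 to 0.84. Its groups did not overlap, nor did those of ITGAV, ITGB5 and ITGA3. ITGA3 was lower in every siYAP+TAZ library than in every siTAZ library, with a log2 fold change of -0.12, and was not called. How many of all genes separate in this way is not reported here. ITGAV and ITGB5 had log2 fold changes of 0.24 and 0.31. With the block ITGB8, ITGAV and ITGB5 were called (adjusted p = 0.028, 0.017 and 0.026), as were 14.8% of all genes. Between the single knockdowns, siYAP against siTAZ, 0 of 9 were called against 0.642% of all genes, 2 had an unadjusted p under 0.05 against 13.7% of all genes, and DESeq2 and limma-voom called 0. These 2 were ITGA6 (log2 fold change -0.20, adjusted p = 0.308) and ITGB4 (-0.41, adjusted p = 0.289), each lower in siYAP in every library.

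Whether the co-knockdown differed from the sum of the single effects was tested as an interaction. None of the 9 passed in edgeR, a count of 0 against 0.0106% of all genes, 0 had an unadjusted p under 0.05 against 5.85% of all genes, and DESeq2 and limma-voom called 0. The interaction terms on the log2 scale ran from -0.20 for ITGA5 to 0.31 for ITGB3. For ITGB8 the term was 0.29 with a 95% interval from -0.18 to 0.76, and for ITGAV 0.23 with an interval from -0.00024 to 0.46. No departure from additivity was detected with 3 libraries per group. How large a departure would have been detected was not tested, and additivity is not shown.

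The libraries carry consecutive numbers, and each run of 5 numbers holds 1 library of every group. Within the runs 16 to 20, 21 to 25 and 26 to 30, the log2 ratio of siYAP+TAZ to siControl was 0.81, 0.87 and 1.44 for ITGB8 and 0.84, 0.84 and 0.67 for ITGA5. It was 0.33, 0.61 and 0.24 for ITGA6, 0.20, 0.34 and 0.35 for ITGAV and 0.22, 0.82 and 0.26 for ITGB5. All 5 were positive in each run, with ITGB5 much larger in libraries 21 to 25. ITGBL1 was negative in each, at -0.76, -0.68 and -1.95, whereas ITGA3 changed sign, at 0.06, 0.11 and -0.20. The ratios of ITGB3, whose level depended on the run, were 0.14, 0.27 and 0.27, and those of ITGB4 were 0.62, 0.55 and 0.20. The labels do not say whether a run is an experiment or a batch.

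**Figure D4:**
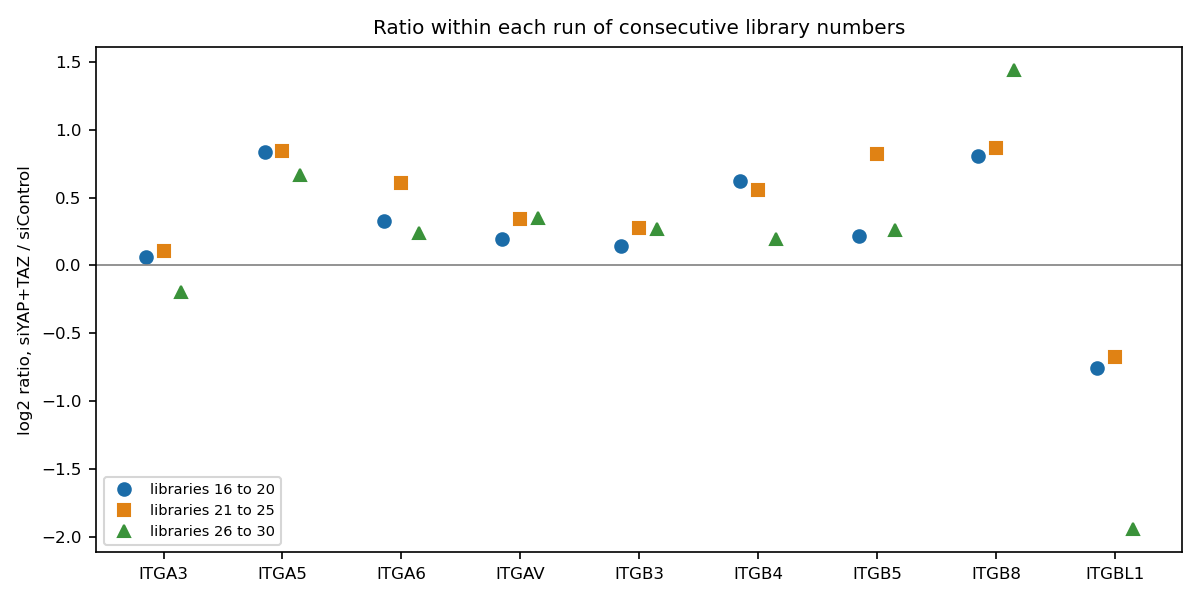
Log2 ratio of siYAP+TAZ to siControl within each run of consecutive library numbers. The x axis gives the 9 genes, the y axis gives the log2 ratio of normalized counts, and each point is 1 pair of libraries, so that it carries no error of its own. Of the 9 genes, 7 have 3 ratios above 0, ITGBL1 has 3 below 0, from -0.68 to -1.95, and ITGA3 straddles 0.

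Over the 15 libraries the integrin RNAs varied together only in part. Pearson's r of log2 CPM was 0.81 for ITGA6 and ITGB5, 0.77 for ITGAV and ITGB8, 0.74 for ITGA6 and ITGB8, and -0.64 for ITGB8 and ITGBL1. These correlations are a description of 15 libraries that share their groups and runs. The genes most like each integrin, among 12930 genes of at least 1 CPM on average, included SH3PXD2A (r = 0.96) and DDR1 (0.94) for ITGB8, of which the former encodes the invadopodia scaffold TKS5 and the latter a collagen receptor. For ITGA5 the nearest was SEMA4B (0.96), for ITGA6 CD99L2 (0.92), for ITGAV LZTFL1 (0.91) and for ITGB5 CHST2 (0.91). For ITGB3 it was IGF1R (0.96), for ITGB4 PHLDB1 (0.95), for ITGA3 TP53I13 (0.89) and for ITGBL1 SCRIB (0.88).

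The remaining integrin subunits show how the 9 genes compare with the rest of the family. Of 17 listed, 9 were in the table, and after co-knockdown 3 rose, 0 fell and 6 were not called, with a median log2 fold change of 0.59. Of all genes, 18.4% were called, 9.97% higher and 8.39% lower. The 3 were the alpha chains of collagen receptors, ITGA2 (1.80, adjusted p = 5.0e-07), ITGA10 (1.86, adjusted p = 3.7e-05) and ITGA1 (1.23, adjusted p = 5.0e-05), each above the 1.04 of ITGB8. The leukocyte chain ITGB2 had a log2 fold change of -0.96 (adjusted p = 0.174). ITGA2 was also called in both single knockdowns, at 0.92 in siYAP and 0.88 in siTAZ.

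Of 12 laminin chains 11 were in the table, and 4 rose, 0 fell and 7 were not called in siYAP+TAZ, with a median log2 fold change of 0.30, where 18.4% of all genes were called and 9.97% were higher. LAMA3 (0.86, adjusted p = 0.025) encodes a chain of laminin-332, the ligand of receptors with ITGA3 or with ITGA6 and ITGB4. LAMB3, chosen after its values were seen, encodes another of its chains. Its mean was 19528 normalized counts in siControl and 19127 in siYAP+TAZ. LAMA5 (0.90, adjusted p = 9.4e-05) and LAMC1 (0.36, adjusted p = 0.020) encode chains of laminin-511. In the single knockdowns 0 of 11 were called, against 0.933% and 2.03% of all genes.

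The ligands and regulators of the RGD receptors moved in both directions. Of 18 listed genes 14 were in the table, and 2 rose, 3 fell and 9 were not called, with a median of 0.27, where 9.97% of all genes were higher and 8.39% lower. CCN1 (-1.17, adjusted p = 8.4e-06) and CCN2 (-0.99, adjusted p = 0.0011), matricellular integrin ligands long known as YAP and TAZ targets, fell, as did THBS1 (-0.56, adjusted p = 3.2e-04), which encodes thrombospondin-1. TNC (1.23, adjusted p = 8.5e-04), the gene of tenascin-C, rose. The fifth called gene was LTBP1 (1.32, adjusted p = 0.012), which anchors latent TGF-beta in the matrix and lies outside the rule of at most 4 named genes, so that it was chosen after its values were seen. In the single knockdowns THBS1 was lower in siYAP (-0.51), and TNC was higher (0.85) and CCN1 lower (-0.65) in siTAZ.

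The proteins that tie integrins to actin were read in the same way. Of 19 adhesion proteins 18 were in the table, and 2 rose, 0 fell and 16 were not called, with a median of 0.026, where 18.4% of all genes were called and 9.97% were higher. They were SRC (0.48, adjusted p = 0.0020), the kinase downstream of integrins, and its docking substrate BCAR1 (0.20, adjusted p = 0.035). Of 6 hemidesmosome and tetraspanin partners of ITGB4 and ITGA6, 4 were in the table, and 2 rose and 2 were not called, with a median of 0.21, against the same 18.4%. COL17A1 (0.82, adjusted p = 2.3e-05), a hemidesmosomal collagen, was also higher in siYAP (0.60), and CD151 (0.25, adjusted p = 0.023) encodes the tetraspanin partner of laminin receptors. PLEC, the gene of the plectin that binds ITGB4, had a log2 fold change of 0.18 with an adjusted p of 0.24.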

How the data were processed

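Polyadenylated RNA was measured in 15 MDA-MB-231 libraries, 5 groups of 3, grouped by sample titles. The authors trimmed the reads with cutadapt in the UTAP pipeline, aligned them with STAR 2.4.2a (per the submitters' processing notes) to GRCh38 (annotation GENCODE 34), and deposited raw counts per gene, the unit used here. The strand setting of the counting is not given in the sources used here. The 30 deposited columns of normalized and rlog values, and the authors' fold changes and p-values for pairs of groups, were not used.

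Counts of all 18858 genes were normalized by TMM and fitted with edgeR 4.0.16 (quasi-likelihood, robust, R 4.3.3) over all 15 libraries with 1 coefficient per group and no block. The authors' methods used DESeq2, which was an alternative here (1.42.0), as was limma-voom (3.58.1). Their minimum of 5 reads in at least 1 library removed 0 genes. P-values were adjusted by Benjamini-Hochberg over all genes, and called means an adjusted p of at most 0.05. SE is the absolute log2 fold change divided by the root of F. A normalized count is a CPM on TMM library sizes, scaled to a common depth. Exon lengths and coordinates are from GENCODE release 44 on GRCh38. The fit was tested on simulated counts.

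The genes and lists were chosen with earlier results of these data known. All 10 listed genes are named, with the 2 or fewer genes of highest Pearson r, and at most 4 genes of lowest adjusted p from each list. The comparisons share libraries, siControl above all. Alternatives were 9 other settings and leaving out each of 15 libraries, and each count model assumes that a group of 2 libraries varies like the others. Some genes of the lists are not reported here by name.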

Additional observations from a re-analysis of the deposited data

How the results depend on the processing

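Of 860 values of 58 results recomputed with another setting or without 1 library, 779 kept their direction and side of the threshold, 20 lost a call, 21 gained one, 24 changed sign without a call before or after, and 16 counts moved by over 1.5 times. The number of the 9 genes called moved as follows, with the percent of all genes called in the same fit behind it. In siYAP+TAZ against siControl it was 6, and 7 with ITGB4 added with DESeq2 (19.4%) or limma-voom (18.6%). Without 1 library it was 3 to 5, with 3 (ITGA5, ITGA6 and ITGB8) without siYAP+TAZ 25 (14.1%). In siYAP against siControl it was 0, and 1 (ITGA5) with DESeq2 (2.12%), with only the groups compared (0.742%) and with a block (6.1%). In siTAZ against siControl it was 0, 1 (ITGA6) with DESeq2 (4.25%), 2 (ITGA5 and ITGA6) with a block (10.3%), and 0 to 1 without 1 library, the 1 being ITGB4 without siControl 27 (1.5%). In siYAP+TAZ against siYAP it was 2, 4 (ITGA6, ITGAV, ITGB5 and ITGB8) with DESeq2 (6.85%), 1 (ITGB8) with DESeq2 size factors (5.23%) or without robust estimation (5.09%), 5 with a block (14.6%), and 1 to 3 without 1 library. It was 1 (ITGB8) without siYAP 18 (2.12%), 23 (3.14%) or 28 (3.6%) or siYAP+TAZ 25 (2.66%). In siYAP+TAZ against siTAZ it was 0, and 3 (ITGAV, ITGB5 and ITGB8) with a block (14.8%). The cause was not tested.

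The block was the run of consecutive library numbers, which holds 1 library of each group and which neither the labels nor the study name as 1 of its 3 sets of experiments. Correlations of the deviations of same-run libraries from their group means ran from -0.026 to 0.35 over 30 pairs, and 21 of the 30 were over 0.1. All 3 pairs were over 0.1 for siYAP with siControl and with siYAP+TAZ, and for no other pair of groups. The correlations ran from 0.23 to 0.35 in libraries 26 to 30 and from -0.026 to 0.11 in libraries 21 to 25. Libraries of different runs were not correlated, so these values do not settle the pairing. The fit without the block is the one reported. With the block, siYAP+TAZ against siControl called 5389 of all genes in place of 3464.

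Sign changes were all among uncalled values. With library sizes alone ITGA3 had a log2 fold change of 0.032 in siYAP+TAZ and 0.014 in siYAP. With Control as the reference ITGB4 was -0.22 in siYAP, and ITGA3 was -0.081 and ITGB3 -0.10 in siTAZ. Without 1 library, the values against siControl ranged in siYAP+TAZ from -0.063 to 0.075 for ITGA3, and in siTAZ from -0.100 to 0.33 for ITGB3. In siYAP they ranged from -0.086 to 0.052 for ITGA3, -0.035 to 0.064 for ITGAV, -0.37 to 0.0056 for ITGB3, -0.095 to 0.25 for ITGB4 and -0.045 to 0.17 for ITGB5. In siYAP+TAZ against siYAP they ranged from -0.0050 to 0.054 for ITGA3 and -0.52 to 0.023 for ITGBL1, and against siTAZ from -0.12 to 0.32 for ITGB3 and -0.088 to 0.083 for ITGB4. The lowest raw counts were those of ITGBL1, 10 to 33 in siControl and siYAP+TAZ, and of ITGB8, 45 to 143.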
